A study of Homo sapiens with 8 samples.

Results

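The 44 genes described here encode receptors for the transmitters glutamate, GABA, glycine and acetylcholine, together with SHISA6, an auxiliary protein of AMPA-type glutamate receptors. They were taken by symbol from a fixed list, with no threshold on a measured value, out of 58217 genes that had a matched transcript. The list was chosen with earlier results of these data known. A filter on low counts kept 18203 genes, among them 37 of the 44, and the other 7 are given as low. The cells were oligodendrocyte progenitor cells (OPCs) derived from human embryonic stem cells of the established line H9, and all groups were seeded at the same density in OPC medium. They were grown on Matrigel (a basement membrane extract and the control substrate, 2 libraries, replicates 2 and 3), on VN (vitronectin, an adhesive protein of plasma and matrix, 3 libraries) or on VNP2 (a designed peptide derived from VN that keeps its RGD motif and was joined to a mussel adhesive protein, 3 libraries). Cells were taken after 2 days, and SOX10 was not overexpressed in any group. The comparisons ask how the substrate alters the transcriptome of OPCs. Nothing in the labels tells whether the replicates of a group were separate cultures, so p-values measure only the spread between these samples, which may be technical.

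Stranded libraries of polyadenylated RNA held between 37997896 and 39429453 estimated counts each. VN replicate 1 stood apart from its group, with a median chi-square per gene of 2.35 and 2.75 against the other VN libraries, where those had 0.782 between them and sampling alone gives 0.455. The labelled cell type was checked against 13 OPC markers. PTPRZ1, OLIG1, OLIG2, NKX2-2 and PDGFRA were detected in every library, with mean levels of 150.3, 60.6, 49.6, 16.0 and 4.49 TPM (a level per transcript length, scaled to the same total in every library). SOX10, which the authors used as an OPC marker, had only 20 estimated counts over all 8 libraries. GPR17 and BCAS1, which mark committed cells of the lineage, had 12 and 7. Neuronal transcripts were abundant in the same libraries, with TUBB3 at 557 TPM and STMN2 at 152 TPM. The values are from bulk RNA, in which fewer cells of a type and less RNA per cell cannot be told apart.

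Ionotropic glutamate receptors are cation channels assembled from subunits of a single family: AMPA receptors (GRIA genes) and kainate receptors (GRIK genes) carry fast excitatory currents, and NMDA receptors (GRIN genes) need the GRIN1 subunit to reach the surface. Metabotropic receptors (GRM genes, and GABBR1 with GABBR2 for GABA) signal through G proteins. GABAA, glycine and nicotinic acetylcholine receptors share another architecture, a ring of subunits around a channel that passes chloride or cations. OPCs are known to carry AMPA, kainate, NMDA and GABAA receptors and to receive synapses from neurons, and neurons express nearly the whole set.

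AMPA receptor subunits exist in flip and flop forms, made by mutually exclusive use of neighbouring exons of 115 bases, which set how fast the channel desensitizes. The exons of GRIA1 and GRIA2 are printed because these subunits used opposite forms in the same cells. GRIA1 lies at chr5:153489615-153813869, plus strand, and its flop and flip exons at chr5:153794621-153794735 and chr5:153795476-153795590. GRIA2 lies at chr4:157204182-157366075, plus strand, with its flop and flip exons at chr4:157361010-157361124 and chr4:157361538-157361652. All coordinates are of GRCh38 from GENCODE v29. The sequences run 5′ to 3′ on the gene's strand, and capitals mark the bases at which the flip and flop exon of a gene differ.
GRIA1 flop: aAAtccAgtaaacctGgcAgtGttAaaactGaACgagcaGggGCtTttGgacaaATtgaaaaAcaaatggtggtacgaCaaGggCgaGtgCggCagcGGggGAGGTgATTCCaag
GRIA1 flip: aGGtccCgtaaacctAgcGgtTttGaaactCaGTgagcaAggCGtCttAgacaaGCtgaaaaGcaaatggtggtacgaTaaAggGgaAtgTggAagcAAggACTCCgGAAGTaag
GRIA2 flop: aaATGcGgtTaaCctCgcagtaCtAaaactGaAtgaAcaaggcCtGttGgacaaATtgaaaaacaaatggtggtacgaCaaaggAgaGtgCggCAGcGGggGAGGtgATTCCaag
GRIA2 flip: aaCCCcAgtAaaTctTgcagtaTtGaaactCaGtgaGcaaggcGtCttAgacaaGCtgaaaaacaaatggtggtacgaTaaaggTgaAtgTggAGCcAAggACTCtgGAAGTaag
Within a gene the exons differed at 36 of 115 bases for GRIA1 and at 35 for GRIA2. Because the forms differ at so many bases, Salmon's estimated counts per transcript could be added up by form.

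GRIA1 was mostly flop and GRIA2 mostly flip on every substrate. The flip form made up 18.1 ± 0.382% (SD, n = 2) of the GRIA1 counts on Matrigel, 14.5 ± 1.24% (n = 3) on VN and 15.5 ± 1.25% (n = 3) on VNP2. Single libraries ran from 13.7% (VN replicate 3, 95% Wilson interval 12.3 to 15.3%) to 18.4% (Matrigel replicate 2, 17.0 to 19.8%), and both Matrigel libraries lay above the other 6. For GRIA2 the flip share was 86.0 ± 2.30%, 86.0 ± 5.22% and 92.7 ± 2.65%, and the libraries of VN overlapped those of both other substrates. GRIA3 was flip throughout except in VN replicate 1, where flop transcripts had 13 of 85 estimated counts. In the other 7 libraries Salmon assigned no flop count among 61 to 103 estimated counts, for which the Wilson interval of the flip share began at 94.1 to 96.4%. GRIA4 transcripts that tell the forms apart held at most 52.8% of that gene's counts, so its flip share, at least 62.1% in every library, is loosely fixed. The intervals treat each estimated count as an observed read of 1 form. Reads from sequence that the forms share were divided between transcripts by Salmon, so the intervals are too narrow. The shares are described without a test between substrates.

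**Figure D1:**
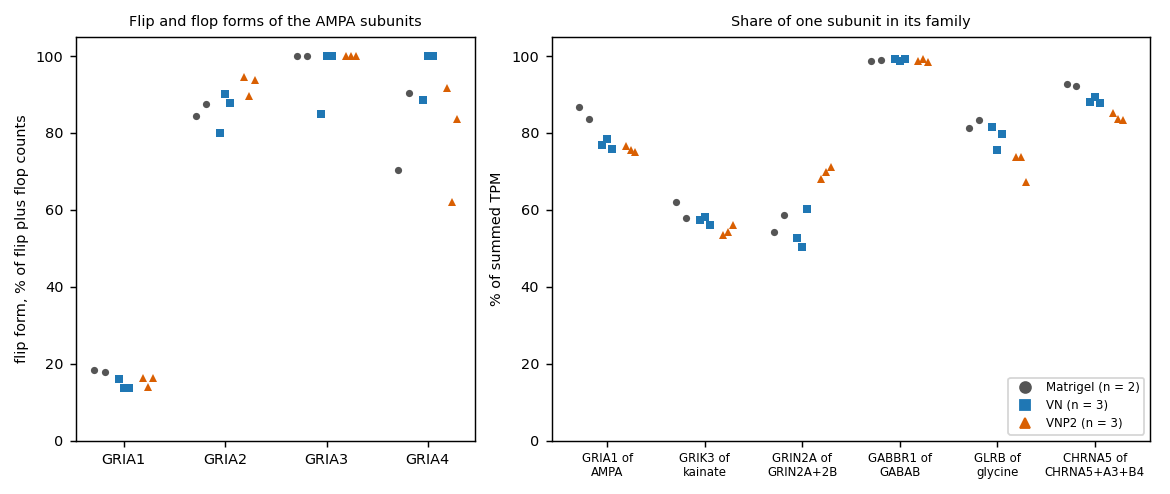
The left panel plots the flip form as % of flip plus flop counts for the 4 AMPA subunits, and the right panel the % of summed TPM that a single subunit holds in its family or set; each point is a library (grey circles Matrigel, n = 2; blue squares VN, n = 3; orange triangles VNP2, n = 3). GRIA1 stays between 13.7 and 18.4% flip and GRIA2 between 80.1 and 94.6%, and the GRIN2A share of GRIN2A plus GRIN2B is highest on VNP2.

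Per transcript length, 27 of the 44 genes averaged at least 1 TPM over the 8 libraries, and 5 averaged at least 10. The highest was GABBR1, the ligand-binding subunit of the GABAB receptor, at 42.3 ± 5.45, 53.2 ± 5.38 and 51.6 ± 3.31 TPM on Matrigel, VN and VNP2 (mean ± SD; n = 2, 3 and 3 here and in the following triplets). CHRNA5, an accessory nicotinic subunit, had 34.0 ± 2.71, 34.1 ± 2.13 and 29.8 ± 1.76 TPM. GRIA1 had 28.1 ± 0.120, 19.8 ± 0.976 and 17.4 ± 0.663 TPM, and the kainate subunit GRIK3 had 16.0 ± 0.309, 18.5 ± 0.0823 and 20.3 ± 1.11 TPM. The nicotinic subunit CHRNB1, known from the receptor of muscle, followed with 13.5 ± 0.0922, 11.7 ± 0.428 and 11.9 ± 0.505 TPM. The order of these 5 held in the mean of each substrate except that GRIK3 stood above GRIA1 on VNP2. Within a substrate the libraries of neighbours in this order did not overlap, and the closest were GRIA1 and GRIK3 on VN, at 18.7 to 20.5 and 18.4 to 18.6 TPM. These levels, like the subunit sums and shares, add all transcripts of a gene, coding or not. The coding transcript with most counts held 37.1, 37.5 and 38.6% of the GABBR1 TPM. For CHRNA5 a transcript with 18.3% of the counts held 43.6, 41.3 and 41.5% of the TPM. For CHRNB1 a transcript with 39.9% of the counts held 52.5, 59.5 and 67.9%. In estimated counts over all 8 libraries CHRNA5 had 7141, below GRIK3 with 27904 and GRIA1 with 18154.

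**Figure D2:**
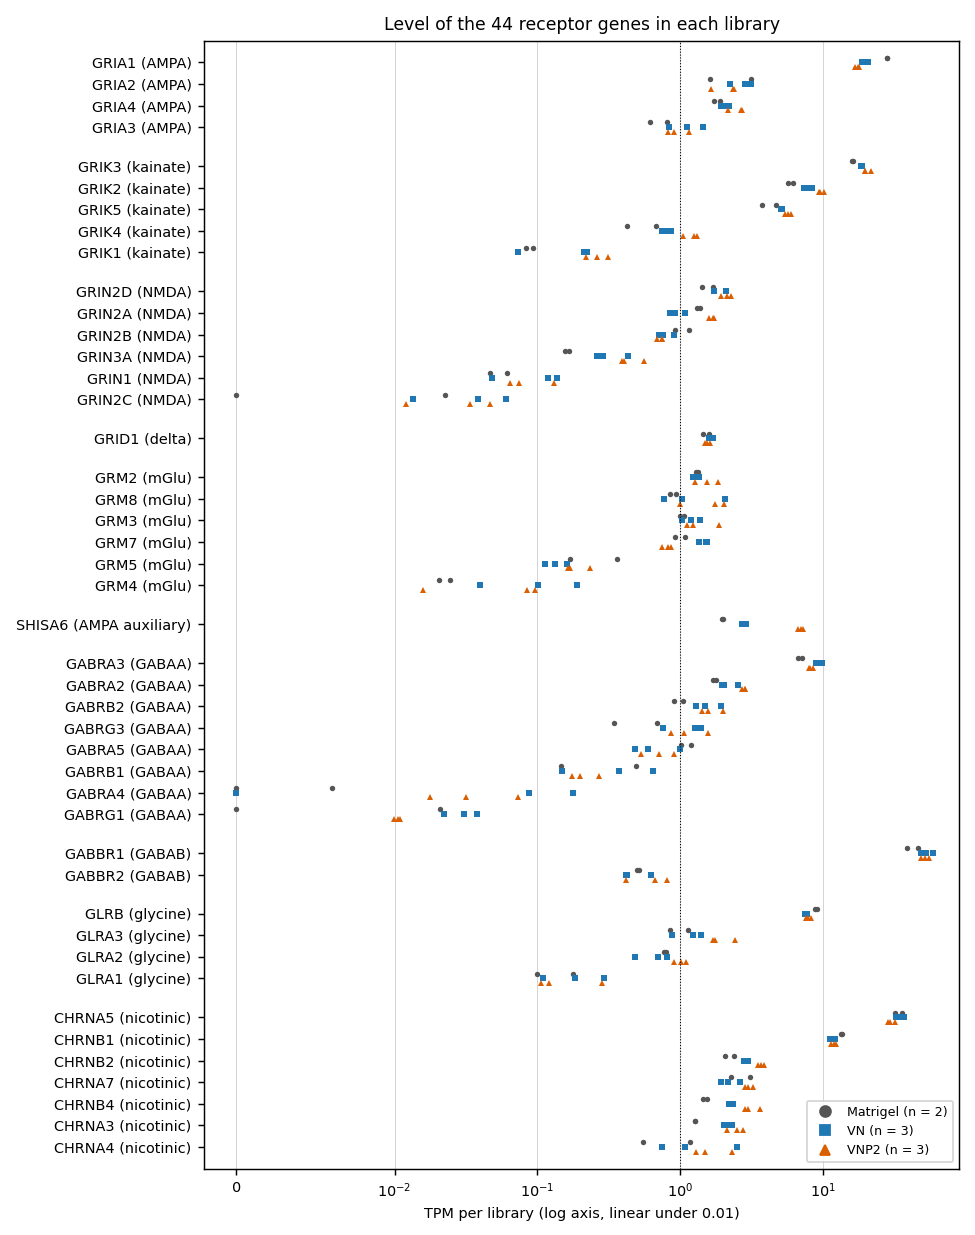
The TPM of each of the 44 genes in each library is plotted on a log axis that is linear under 0.01, with genes grouped by family and ordered by mean level; points are libraries (grey circles Matrigel, n = 2; blue squares VN, n = 3; orange triangles VNP2, n = 3) and the dotted line marks 1 TPM. GABBR1 and CHRNA5 lie above 10 TPM in every library, whereas partner subunits such as GABBR2 and GRIN1 lie below 1 TPM.

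The 7 genes that failed the filter had between 14 and 54 estimated counts in all 8 libraries together. GRIN1 had 47 (5 and 4 in the Matrigel libraries, 4, 6 and 4 in the VN libraries, and 7, 5 and 12 in the VNP2 libraries), although every NMDA receptor needs this subunit. Its level of 0.0537 ± 0.010, 0.101 ± 0.0468 and 0.0898 ± 0.0364 TPM stood beside 1.55 ± 0.201, 1.85 ± 0.216 and 2.1 ± 0.163 TPM for GRIN2D and 1.34 ± 0.0348, 0.948 ± 0.121 and 1.66 ± 0.0686 TPM for GRIN2A. The remaining low genes were GABRB1 with 54 counts, GLRA1 (the adult form of the glycine receptor alpha subunit) with 52, GRM4 with 30, GABRA4 with 20, GRIN2C with 16 and GABRG1 with 14. A similar gap held for the GABAB receptor, which needs both of its subunits: GABBR2 had 0.504 ± 0.00889, 0.487 ± 0.115 and 0.631 ± 0.199 TPM, so that GABBR1 held 98.8, 99.1 and 98.8% of their sum on the 3 substrates.

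Summed over the subunits of a family, AMPA receptor levels were lower on VN and VNP2 than on Matrigel and kainate receptor levels higher, and most of the AMPA sum was GRIA1. The 4 AMPA subunits added up to 33.1 ± 0.712 TPM on Matrigel, 25.7 ± 1.38 on VN and 23.0 ± 1.09 on VNP2. The 5 kainate subunits, in the same order, added up to 26.8 ± 0.824, 32.4 ± 0.769 and 37.1 ± 1.15 TPM. The ranges of these sums overlapped between no substrates for either family. GRIA1 was the only AMPA subunit called, and the median log2 fold change of the 4 AMPA subunits was 0.12 on VN and 0.08 on VNP2 against Matrigel, beside 0.32 and 0.64 for the 5 kainate subunits. NMDA subunits summed to 4.16 ± 0.396, 4.06 ± 0.381 and 5.06 ± 0.179 TPM, with VNP2 above and the others overlapping. GABAA subunits were lowest on Matrigel at 11.6 ± 0.206 TPM, against 15.5 ± 1.71 and 14.8 ± 0.741. The nicotinic sum, at 56.0 ± 1.46, 56.8 ± 1.5 and 55.7 ± 1.90 TPM, overlapped between all substrates. These sums are descriptions of the listed subunits and carry no test.

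**Figure D3:**
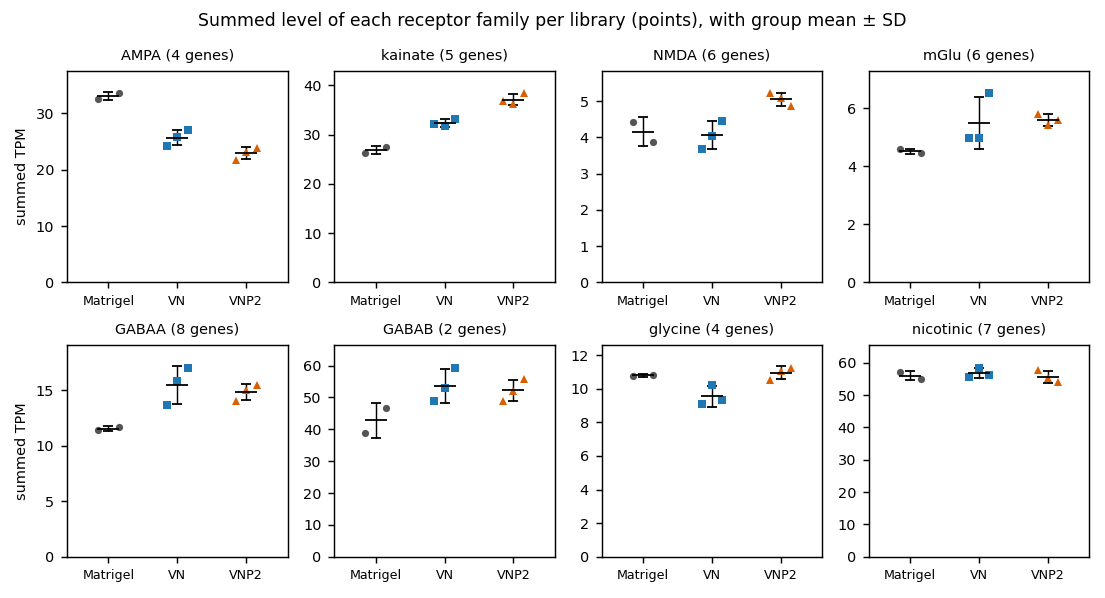
Summed TPM of the listed genes of each receptor family is plotted per library for Matrigel (grey circles, n = 2), VN (blue squares, n = 3) and VNP2 (orange triangles, n = 3), with the group mean and SD in black and axes from 0. The AMPA sum, most of which is GRIA1 (28.1, 19.8 and 17.4 TPM), goes from 33.1 to 25.7 and 23.0 TPM, kainate goes from 26.8 to 32.4 and 37.1 TPM, and the nicotinic sum stays near 56 TPM.

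In 1 edgeR quasi-likelihood fit of all 8 libraries, a gene was called changed at a Benjamini-Hochberg adjusted p under 0.05, with the adjustment over all 18203 genes. On VN against Matrigel, 10 of the 37 tested receptor genes were called (27.0%, where 15.2% of all genes tested were), 5 higher and 5 lower (5.82% and 9.38% of all genes). On VNP2 against Matrigel 14 were called (37.8%, against 16.6% of all genes), 12 of them higher and 2 lower (7.45% and 9.14%). Between the vitronectin substrates, 5 were called on VNP2 against VN (13.5%, against 5.19%), 4 higher and 1 lower (3.08% and 2.12%). The first pair of comparisons share the Matrigel libraries, and each VN or VNP2 library enters a pair of comparisons. Because the list was chosen with earlier results of these data known, its shares of calls are not independent of that choice. Of the 13 further receptor subunits tested, 0.0%, 7.69% and 7.69% were called in the same comparisons. The median log2 fold change of the 37 genes was 0.18, 0.36 and 0.24 in the 3 comparisons, beside 0.0078, 0.0028 and -0.0026 over all genes tested. In all, 19 genes were called in at least 1 comparison (23.0% of all genes were), 2 of them, SHISA6 and GRIK2, in all 3. The libraries of a pair did not overlap for 15 receptor genes that were higher and 9 that were lower on VN against Matrigel (21.7% and 22.7% of all genes, 44.4% in all), 22 and 7 on VNP2 against Matrigel (23.1% and 25.0%, 48.1% in all), and 13 and 4 on VNP2 against VN (12.2% and 11.2%, 23.5% in all). VNP2 had the highest mean normalized count for 24 of the 37, Matrigel for 7 and VN for 6. No such count was made over all genes, so these numbers have no background to be read against.

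Counts of calls depended on the libraries and on the length correction. Without Matrigel replicate 2 or 3, 3 or 4 genes were called on VN against Matrigel, without VN replicate 3 it was 5, and 5 in a fit of these 5 libraries alone. On VNP2 against Matrigel the count was 9 without Matrigel replicate 2 and 23 without offsets for transcript length. For VNP2 against VN, it was 3 without VNP2 replicate 1 or replicate 3. Without VN replicate 1, the library that stood apart, the counts were 13, 16 and 6.

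**Figure D4:**
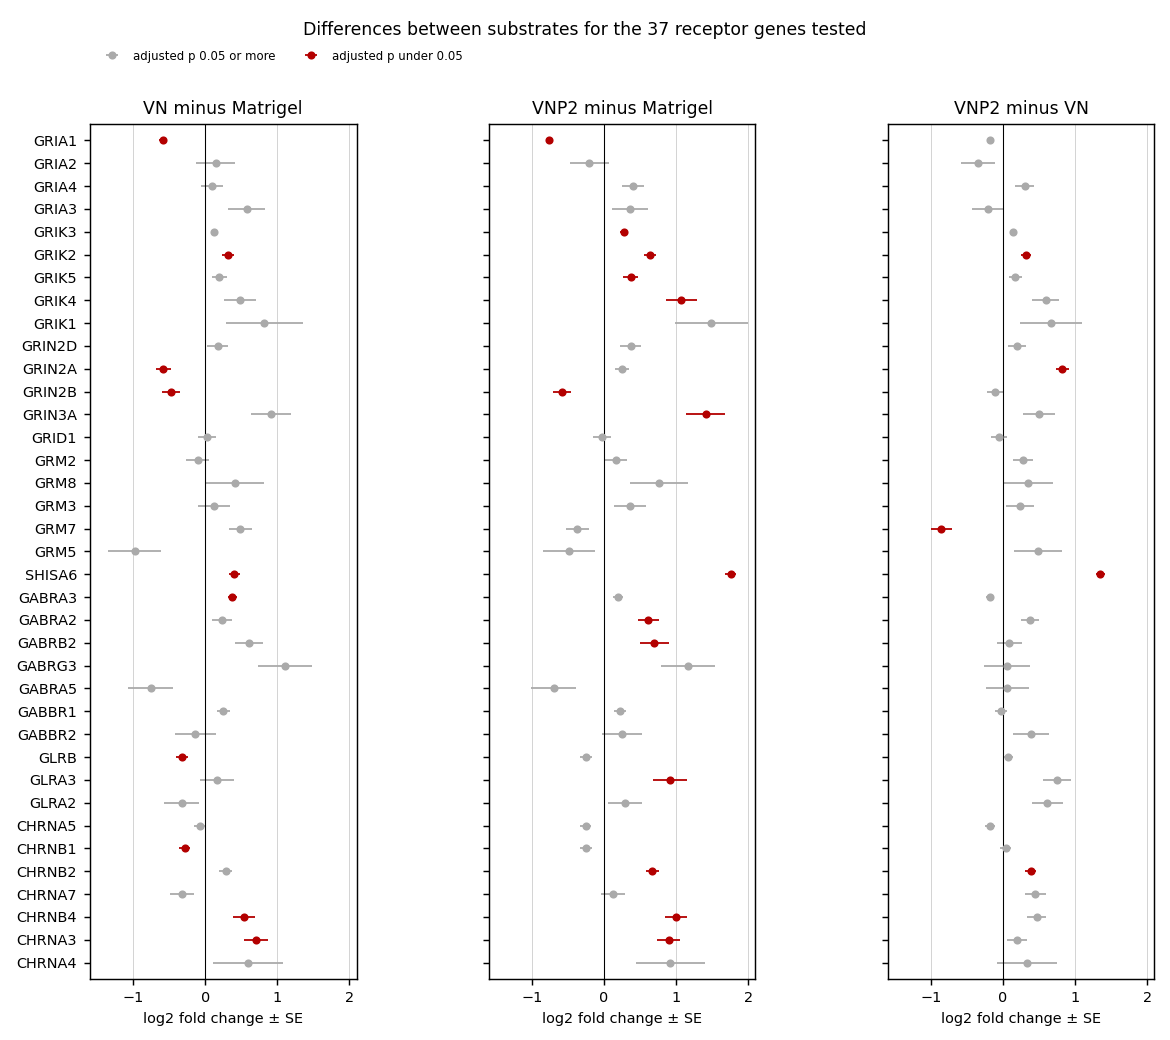
Log2 fold changes with their SE are plotted for the 37 genes tested, in panels for VN minus Matrigel, VNP2 minus Matrigel and VNP2 minus VN; red marks an adjusted p under 0.05 and grey the rest. The kainate subunits lie to the right of 0 in every panel, GRIA1 to the left, and SHISA6 stands farthest to the right in the last panel, at 1.35.

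SHISA6 (chr17:11241263-11564063, plus strand) encodes a membrane protein that binds AMPA receptors and slows their desensitization, and it had the largest called change among the 44 genes. SHISA6 had normalized counts of 267 and 267 in the Matrigel libraries, 351, 342 and 367 in the VN libraries, and 942, 900.3 and 860.3 in the VNP2 libraries. The 3 groups did not overlap, with the VNP2 libraries far above the rest. The log2 fold change was 0.40 (SE 0.0781, adjusted p = 0.00678) on VN and 1.75 (SE 0.0764, adjusted p = 2.15e-07) on VNP2 against Matrigel, and 1.35 (SE 0.0643, adjusted p = 3.93e-06) between VNP2 and VN, a ratio of 2.55. The difference between VN and Matrigel lost its call without Matrigel replicate 2 (0.40, adjusted p = 0.0532) or replicate 3 (0.40, adjusted p = 0.0540), whereas both VNP2 calls were kept in all 16 alternative fits.

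Among the AMPA subunits only GRIA1 was called, and it fell. GRIA1 had normalized counts of 3176 and 3142 in the Matrigel libraries, 2021, 2134 and 2156 in the VN libraries, and 1789, 1880 and 1922 in the VNP2 libraries. Every VN and VNP2 library lay below both Matrigel libraries. The log2 fold change was -0.59 (SE 0.0481, adjusted p = 2.57e-05) on VN and -0.76 (SE 0.0482, adjusted p = 2.65e-06) on VNP2 against Matrigel, and both calls held in all 16 alternatives. Its difference between VNP2 and VN was -0.17 (SE 0.0443, adjusted p = 0.0503), with no overlap of libraries but above the threshold. GRIA2, the subunit that makes AMPA receptors impermeable to calcium, had 2.38 ± 1.08, 2.72 ± 0.456 and 2.12 ± 0.413 TPM and overlapping libraries in all comparisons (adjusted p = 0.771, 0.680 and 0.466). GRIA3 and GRIA4 had log2 fold changes of 0.57 and 0.10 on VN and 0.36 and 0.40 on VNP2, none of them called. GRIA1 held 85.2 ± 2.20% of the summed AMPA subunit TPM on Matrigel, 77.1 ± 1.37% on VN and 75.7 ± 0.722% on VNP2.

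All 5 kainate subunits had positive log2 fold changes in every comparison, and 4 of them rose on VNP2 against Matrigel. GRIK2 (chr6:101181257-102070083, plus strand), a subunit that can form channels alone, had normalized counts of 438 and 471 in the Matrigel libraries, 562, 532 and 603 in the VN libraries, and 695, 685 and 744 in the VNP2 libraries, so the 3 groups were ordered without overlap. Its log2 fold change was 0.32 (SE 0.0802, adjusted p = 0.0242) on VN, 0.64 (SE 0.0795, adjusted p = 0.000314) on VNP2 and 0.32 (SE 0.0690, adjusted p = 0.0232) between them. The VN call was lost without Matrigel replicate 2, Matrigel replicate 3 or VN replicate 3 (log2 fold changes of 0.26, 0.37 and 0.27, adjusted p = 0.178, 0.0722 and 0.0771), and in a fit of the pair's libraries (0.32, adjusted p = 0.0563). The call between VNP2 and VN was lost without VN replicate 2, VNP2 replicate 1 or VNP2 replicate 3 (0.28, 0.34 and 0.29, adjusted p = 0.0813, 0.0676 and 0.0949).

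GRIK3 (chr1:36795527-37034129, minus strand), the most abundant kainate subunit, had normalized counts of 3183 and 3083 in the Matrigel libraries, 3483, 3385 and 3408 in the VN libraries, and 3668, 3660 and 4009 in the VNP2 libraries. It was ordered Matrigel, VN, VNP2 without overlap, but the change was small, with 0.27 (SE 0.0484, adjusted p = 0.00337) on VNP2 against Matrigel. GRIK4 and GRIK5 encode the high-affinity subunits, which need a partner such as GRIK2 or GRIK3. GRIK4 (chr11:120511700-120988904, plus strand) had normalized counts of 42.1 and 67.2 in the Matrigel libraries, 77.7, 69.9 and 80.0 in the VN libraries, and 125, 119.6 and 99.0 in the VNP2 libraries, and its VNP2 libraries lay above all others. It rose by 1.07 (SE 0.216, adjusted p = 0.00674) on VNP2 against Matrigel, a ratio of 2.1, and by 0.77 (adjusted p = 0.0687) without Matrigel replicate 2. GRIK5 (chr19:41998321-42069498, minus strand) had normalized counts of 280.2 and 345 in the Matrigel libraries, 363, 352 and 358 in the VN libraries, and 426, 403 and 380.4 in the VNP2 libraries, again with no library of VNP2 at or below one of VN. Its log2 fold change on VNP2 against Matrigel was 0.37 (SE 0.102, adjusted p = 0.0331), and of the fits that left out a library, the call was lost without Matrigel replicate 2 (0.23, adjusted p = 0.271), VNP2 replicate 1 (0.32, adjusted p = 0.0989) or VNP2 replicate 2 (0.37, adjusted p = 0.0764). GRIK1 had 4.49 to 19.6 normalized counts per library and was not called, with a log2 fold change of 1.49 (SE 0.510, adjusted p = 0.0755) on VNP2 against Matrigel. GRIK1 and GRIK5 overlap BACH1 and ZNF574 on the opposite strand, which the stranded libraries can tell apart only as far as strand was used in quantification.

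The NMDA subunits GRIN2A and GRIN2B set the kinetics of the receptor and are known for a switch from GRIN2B to GRIN2A as neurons mature. Both were called lower on VN against Matrigel, whereas on VNP2 against Matrigel only GRIN2B was called lower. GRIN2A (chr16:9753404-10182754, minus strand) had normalized counts of 420.3 and 403 in the Matrigel libraries, 249, 267 and 311 in the VN libraries, and 466, 504 and 494 in the VNP2 libraries, with all VN libraries lowest and all VNP2 libraries highest. It fell by 0.58 (SE 0.101, adjusted p = 0.00385) on VN against Matrigel and rose by 0.82 (SE 0.0899, adjusted p = 0.000542) on VNP2 against VN, calls that held in all 16 alternatives. On VNP2 against Matrigel its log2 fold change of 0.24 (SE 0.0991, adjusted p = 0.131) was not called. GRIN2B (chr12:13437942-13981957, minus strand) had normalized counts of 576 and 461 in the Matrigel libraries, 363, 426 and 333 in the VN libraries, and 354, 355 and 325 in the VNP2 libraries, with both Matrigel libraries highest and VN and VNP2 overlapping. Its log2 fold changes were -0.47 (SE 0.122, adjusted p = 0.0259) on VN and -0.59 (SE 0.123, adjusted p = 0.00831) on VNP2 against Matrigel, and -0.11 (SE 0.113, adjusted p = 0.641) between VNP2 and VN. The VN call was lost without Matrigel replicate 2 (-0.31, adjusted p = 0.235) or VN replicate 3 (-0.39, adjusted p = 0.0850) and in a fit of the pair's libraries (-0.47, adjusted p = 0.0530), and the VNP2 call without Matrigel replicate 2 (-0.42, adjusted p = 0.105). GRIN2A made up 56.5 ± 3.13, 54.5 ± 5.15 and 69.7 ± 1.53% of the TPM of GRIN2A plus GRIN2B on Matrigel, VN and VNP2.

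GRIN3A (chr9:101569353-101738580, minus strand), a subunit that lowers the calcium permeability of NMDA receptors, was low on every substrate. GRIN3A had normalized counts of 27.6 and 25.7 in the Matrigel libraries, 42.1, 44.9 and 66.7 in the VN libraries, and 87.7, 63.9 and 61.3 in the VNP2 libraries, and both Matrigel libraries lay below all others. The log2 fold change was 1.41 (SE 0.273, adjusted p = 0.00534) on VNP2 against Matrigel, and 1.36 (adjusted p = 0.0531) without Matrigel replicate 3. On VN it was 0.91 (SE 0.281, adjusted p = 0.0539). GRIN2D, with 123 to 188 normalized counts per library, was not called in any comparison.

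Of the metabotropic glutamate receptors, GRM7 alone was called, and it was lower on VNP2 than on VN. GRM7 (chr3:6770001-7741533, plus strand) encodes a presynaptic receptor that inhibits release. GRM7 had normalized counts of 78.1 and 91.1 in the Matrigel libraries, 124, 108 and 124 in the VN libraries, and 66.1, 60.2 and 69.7 in the VNP2 libraries, so VNP2 was lowest and VN highest with no overlap among the 3 groups. The log2 fold change was -0.86 (SE 0.143, adjusted p = 0.00640) between VNP2 and VN, a call kept in all 16 alternatives, and 0.49 (SE 0.159, adjusted p = 0.0659) and -0.37 (SE 0.162, adjusted p = 0.160) on VN and VNP2 against Matrigel. GRM2, GRM3 and GRM8, like GRM7 coupled to inhibition of cyclic AMP, had mean levels of 1.39, 1.23 and 1.30 TPM, and their log2 fold changes on VNP2 against Matrigel were 0.17, 0.36 and 0.76, none called. GRM5, which signals through phospholipase C, had 15 to 50.9 normalized counts and was not called. For GRM2, a transcript annotated as a retained intron held 67.1% of the counts. The delta receptor gene GRID1 was flat, with log2 fold changes of 0.02, -0.03 and -0.05, and a transcript annotated for nonsense-mediated decay held 66.1% of its counts.

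Among the GABAA receptor subunits in the list, 3 rose in at least 1 comparison and none fell. GABRA3 (chrX:152166234-152451358, minus strand), an alpha subunit prominent in the embryonic nervous system, had normalized counts of 561 and 589 in the Matrigel libraries, 720.4, 753 and 765 in the VN libraries, and 640.1, 649 and 682 in the VNP2 libraries, highest on VN without overlap. It rose by 0.38 (SE 0.0655, adjusted p = 0.00383) on VN, in all 16 alternatives, and its log2 fold change on VNP2 was 0.19 (SE 0.0657, adjusted p = 0.0757). GABRA2 (chr4:46248427-46475230, minus strand), another alpha subunit, had normalized counts of 114 and 109 in the Matrigel libraries, 125, 118 and 151 in the VN libraries, and 174, 165 and 173 in the VNP2 libraries, with VNP2 above all other libraries. Its log2 fold change on VNP2 against Matrigel was 0.61 (SE 0.141, adjusted p = 0.0136), and 0.65 and 0.58 (adjusted p = 0.0693 and 0.0954) without Matrigel replicate 2 and replicate 3. GABRB2 (chr5:161288429-161549044, minus strand), a beta subunit, had normalized counts of 98.8 and 114 in the Matrigel libraries, 135, 154 and 196 in the VN libraries, and 147, 207 and 163 in the VNP2 libraries. Both Matrigel libraries lay below the rest and VN and VNP2 overlapped. Its log2 fold change on VNP2 against Matrigel was 0.70 (SE 0.199, adjusted p = 0.0373), and the call was lost without either Matrigel library (0.60 and 0.80, adjusted p = 0.222 and 0.105), without VN replicate 2 (0.70, adjusted p = 0.0503) and without VNP2 replicate 2 or 3 (0.55 and 0.74, adjusted p = 0.107 and 0.0655).

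GABRG3 and GABRA5, neighbours on chromosome 15, had log2 fold changes in opposite directions that were not called in the main fit. On both VN and VNP2 against Matrigel, GABRG3 was called without length offsets, without the filter, with the replicate block, without VN replicate 1 and in DESeq2. GABRA5 was called on VN without VN replicate 2. On VN and VNP2 they were 1.11 and 1.17 for GABRG3 (adjusted p = 0.0769 and 0.0617) and -0.76 and -0.70 for GABRA5 (adjusted p = 0.136 and 0.173). The GABAB subunits GABBR1 and GABBR2 were not called, with log2 fold changes of 0.25 (SE 0.0897, adjusted p = 0.0898) and -0.14 (SE 0.283, adjusted p = 0.792) on VN. On VNP2 against Matrigel they had 0.22 (SE 0.0896, adjusted p = 0.131) and 0.25 (SE 0.278, adjusted p = 0.613). Against Matrigel, GABBR1 was called on both VN and VNP2 without length offsets, without the filter and with the replicate block.

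The glycine receptor genes changed in different directions. GLRB (chr4:157076057-157172090, plus strand), the beta subunit that anchors the receptor to gephyrin, had normalized counts of 366 and 378 in the Matrigel libraries, 299, 305 and 292 in the VN libraries, and 312, 327 and 302 in the VNP2 libraries, with both Matrigel libraries above the other 6. It fell by 0.32 (SE 0.0822, adjusted p = 0.0262) on VN, and its log2 fold change on VNP2 was -0.25 (SE 0.0821, adjusted p = 0.0673). The VN call was kept in 8 of 16 alternatives. It was lost without Matrigel replicate 2 or 3 (-0.34 and -0.30, adjusted p = 0.101 and 0.147) and without VN replicate 2 or 3 (-0.33 and -0.30, adjusted p = 0.0531 and 0.0733). It was also lost without length offsets (-0.22, adjusted p = 0.0951), without the filter (-0.32, adjusted p = 0.0631), in a fit of the pair's libraries (-0.32, adjusted p = 0.0620) and in DESeq2 (-0.32, adjusted p = 0.0706). GLRA3 (chr4:174636914-174829314, minus strand), a ligand-binding alpha subunit, had normalized counts of 123 and 91.5 in the Matrigel libraries, 91.0, 143 and 125 in the VN libraries, and 180.5, 176 and 249 in the VNP2 libraries, and the VNP2 libraries lay above all others. It rose by 0.91 (SE 0.231, adjusted p = 0.0215) on VNP2 against Matrigel, with 0.71 (adjusted p = 0.184) without Matrigel replicate 3 and 0.74 (adjusted p = 0.0632) without VNP2 replicate 3, and its log2 fold change between VNP2 and VN was 0.75 (SE 0.197, adjusted p = 0.0592). GLRA2, the alpha subunit of the fetal nervous system, had 0.780 ± 0.0109, 0.660 ± 0.165 and 1.0 ± 0.0945 TPM and was not called. The GLRB share of the glycine subunit TPM was 82.4 ± 1.59, 79.0 ± 3.05 and 71.6 ± 3.84%.

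The nicotinic subunits CHRNA3 and CHRNB4 rose on both vitronectin substrates and CHRNB2 on VNP2, CHRNB1 fell on VN, and CHRNA4, CHRNA5 and CHRNA7 were not called. CHRNA5, CHRNA3 and CHRNB4 lie side by side within 162.2 kb at chr15:78565520-78727754, a cluster whose products join in receptors of autonomic and some central neurons. CHRNA3 (chr15:78593052-78621295, minus strand) had normalized counts of 66.5 and 65.5 in the Matrigel libraries, 110.0, 99.8 and 113 in the VN libraries, and 125, 106 and 138 in the VNP2 libraries, with both Matrigel libraries below the other 6. Its log2 fold changes were 0.70 (SE 0.163, adjusted p = 0.0162) on VN and 0.89 (SE 0.162, adjusted p = 0.00368) on VNP2, and the VN value was 0.72 and 0.69 (adjusted p = 0.0888 and 0.0966) without Matrigel replicate 2 and replicate 3, and 0.55 (adjusted p = 0.0519) without length offsets. CHRNB4 (chr15:78624119-78727754, minus strand) had normalized counts of 85.3 and 79.9 in the Matrigel libraries, 124, 122 and 114 in the VN libraries, and 157, 190.1 and 149.6 in the VNP2 libraries, ordered Matrigel, VN, VNP2 without overlap. It rose by 0.53 (SE 0.152, adjusted p = 0.0394) on VN and 1.0 (SE 0.151, adjusted p = 0.00118) on VNP2, a ratio of 2.0 for the latter.

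The VNP2 calls of CHRNA3 and CHRNB4 held in all 16 alternatives. The VN call of CHRNB4 was kept in 7, and of the fits that left out a library only those without VNP2 replicate 2 or 3 kept it; the log2 fold change in the others was 0.49 to 0.58 with adjusted p = 0.0552 to 0.192. It was also lost without the filter, in a fit of the pair's libraries and in DESeq2 (0.53 in each, adjusted p = 0.0619, 0.0611 and 0.0868). CHRNA5 (chr15:78565520-78595269, plus strand) had normalized counts of 1029 and 915 in the Matrigel libraries, 916, 982 and 874 in the VN libraries, and 868, 801 and 772 in the VNP2 libraries, and its log2 fold changes of -0.07 (SE 0.0792, adjusted p = 0.597) and -0.25 (SE 0.0792, adjusted p = 0.0528) were not called. Its share of the TPM of the cluster was 92.5 ± 0.372, 88.4 ± 0.767 and 84.2 ± 0.986%, with no overlap between substrates. CHRNA3 and CHRNA5 overlap by 2218 bases on opposite strands.

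CHRNB2 (chr1:154567781-154580026, plus strand), the beta subunit of the main high-affinity nicotinic receptor of the brain, had normalized counts of 285 and 326 in the Matrigel libraries, 374, 384 and 359.7 in the VN libraries, and 509.7, 461 and 487 in the VNP2 libraries. The 3 groups were ordered Matrigel, VN, VNP2 without overlap. Its log2 fold change was 0.67 (SE 0.0892, adjusted p = 0.000508) on VNP2 against Matrigel, 0.38 (SE 0.0776, adjusted p = 0.0180) on VNP2 against VN and 0.29 (SE 0.0899, adjusted p = 0.0579) on VN against Matrigel. The call between VNP2 and VN was lost without VN replicate 3, VNP2 replicate 1 or VNP2 replicate 3 (0.36, 0.35 and 0.38, adjusted p = 0.0688, 0.0842 and 0.0622). CHRNA4, its usual alpha partner, varied widely among replicates after the length correction, from 61.0 to 201 normalized counts on VN alone, and was not called. Before that correction its estimated counts were 67 and 96 in the Matrigel libraries, 112, 71 and 102 in the VN libraries, and 133, 132 and 147 in the VNP2 libraries. Without length offsets CHRNA4 was called on VNP2 against Matrigel. CHRNB1 (chr17:7445061-7457707, plus strand) had normalized counts of 473 and 476 in the Matrigel libraries, 409.9, 372 and 387 in the VN libraries, and 382, 415 and 401 in the VNP2 libraries, with both Matrigel libraries above the rest. It fell by 0.29 (SE 0.0780, adjusted p = 0.0336) on VN, and its log2 fold change on VNP2 was -0.25 (SE 0.0782, adjusted p = 0.0540). The VN call was kept in 7 of 16 alternatives; without Matrigel replicate 2 or 3, VN replicate 2 or 3, or VNP2 replicate 3 the log2 fold change was -0.25 to -0.29 with adjusted p = 0.0515 to 0.147. It was also lost without the filter, in a fit of the pair's libraries and in DESeq2 (-0.29, -0.28 and -0.29, adjusted p = 0.0641, 0.0686 and 0.0722). CHRNA7 was not called (-0.32, 0.13 and 0.45), and its counts are uncertain because it shares sequence with CHRFAM7A, to which Salmon gave 154 and 161 counts in the Matrigel libraries, 95, 104 and 99 in the VN libraries, and 79, 116 and 114 in the VNP2 libraries.

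**Figure D5:**
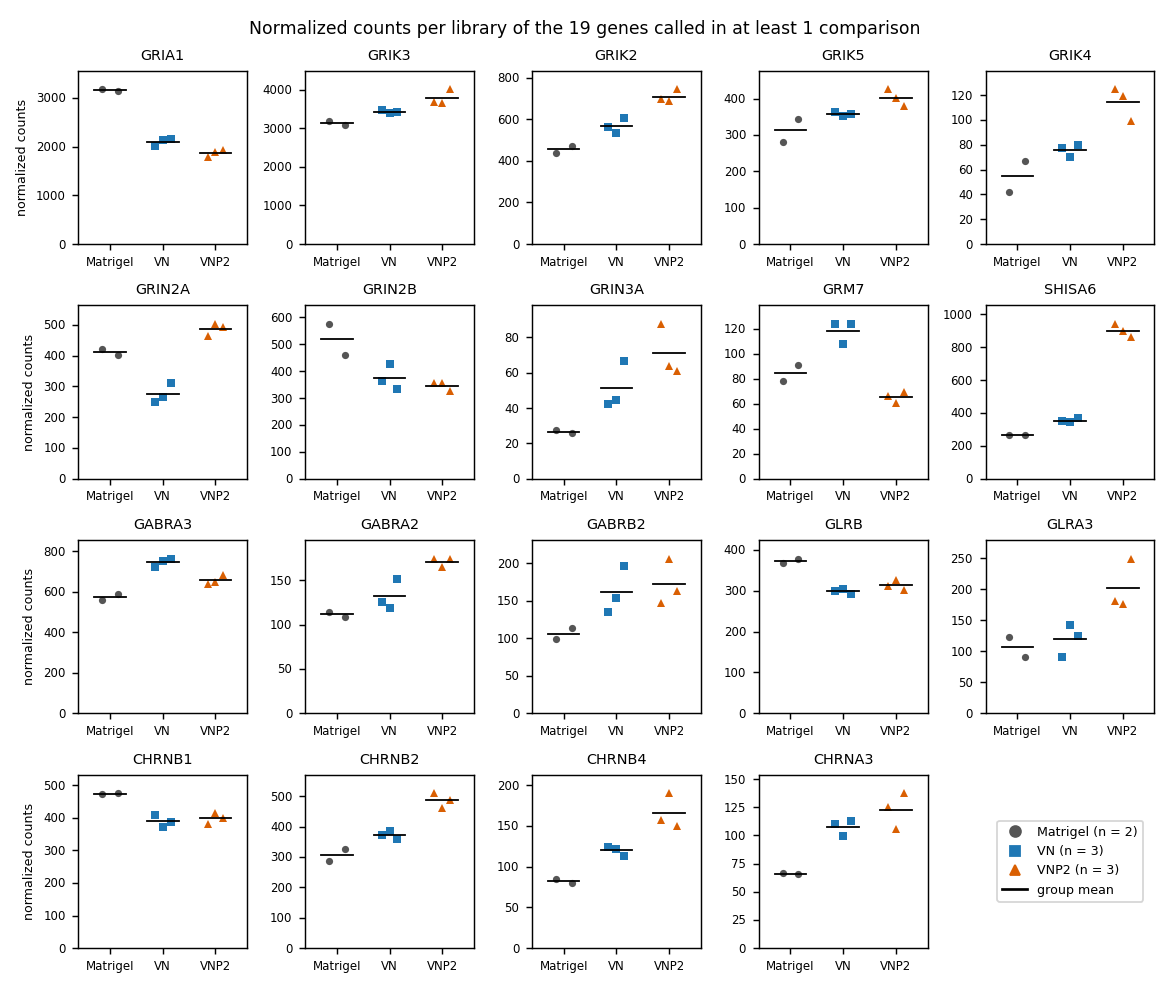
Normalized counts of the 19 genes called in at least 1 comparison are plotted per library for Matrigel (grey circles, n = 2), VN (blue squares, n = 3) and VNP2 (orange triangles, n = 3), with group means as black lines and axes from 0. SHISA6 is near 900 on VNP2 against 353 on VN and 267 on Matrigel by group mean, GRIN2A is lowest on VN at 276, and GRM7 is highest on VN at 118.

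RefSeq promoter windows (250 bases before an annotated start, GRCh38.p14) were matched by symbol for 34 of the 44 genes. The windows of CHRNB2 and GRM7 are printed because these genes were called in opposite directions between VNP2 and VN and the RefSeq start lay within 3 bases of the start of the transcript that held most of their counts. The CHRNB2 window is chr1:154567528-154567777, plus strand, and that of GRM7 is chr3:6860865-6861114, plus strand. Both read 5′ to 3′ on the gene's strand, with capitals for the motifs found.
CHRNB2: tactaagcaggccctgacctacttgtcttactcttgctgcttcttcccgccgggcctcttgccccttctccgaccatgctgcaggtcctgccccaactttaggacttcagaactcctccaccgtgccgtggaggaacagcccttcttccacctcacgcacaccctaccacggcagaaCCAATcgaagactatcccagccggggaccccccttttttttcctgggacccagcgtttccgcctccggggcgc
GRM7: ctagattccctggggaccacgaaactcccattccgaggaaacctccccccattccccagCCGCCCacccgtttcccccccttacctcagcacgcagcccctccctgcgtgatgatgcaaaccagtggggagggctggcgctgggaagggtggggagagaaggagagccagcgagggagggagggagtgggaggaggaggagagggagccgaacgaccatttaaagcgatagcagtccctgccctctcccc
CHRNB2 held a CCAAT box (CCAAT) and GRM7 a GC box (GGGCGG, here read from the other strand), and neither window held a TATA box (TATAAA), an E-box (CAGCTG) or a homeobox core (TAATTA) on either strand. Over the 25 windows of called receptor genes, 15 held GGGCGG (60.0%), as did 12 of the 22 windows (54.5%) of tested genes that were not called and 42.6% of all 35116 windows. The 25 and 22 windows came from 17 and 12 genes, some with several windows. The median share of G and C bases was 64.4%, 60.0% and 58.0% in these sets, which bears on a motif made of G and C only. The TATA box was in 8.0% of the windows of called genes and 10.7% of all, and the homeobox core in none of the 53 receptor windows and 4.35% of all. Both strands were searched, matches of different motifs that overlap count for each, and a match describes letters, not a bound factor.

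Genes around the receptors were counted from lists of the same pathway. Of 22 further receptor subunits 13 were tested, with 0 called on VN, 1 higher on VNP2 against Matrigel and 1 higher on VNP2 against VN (0.0%, 7.69% and 7.69% of those tested). Of 40 auxiliary subunits and scaffolds 36 were tested, with 4 higher and 2 lower on VN, 9 higher and 1 lower on VNP2 against Matrigel, and 5 higher and 2 lower on VNP2 against VN. These are 16.7%, 27.8% and 19.4% of those tested, where 15.2%, 16.6% and 5.19% of all genes were called, so the share on VN was near that of all genes. GRIP2, a scaffold that binds AMPA receptor subunits, rose in every comparison, by 0.74 (SE 0.163, adjusted p = 0.0126) on VN, 1.62 (SE 0.161, adjusted p = 6.63e-05) on VNP2 and 0.87 (SE 0.134, adjusted p = 0.00393) between them. SHISA9, a relative of SHISA6 that also binds AMPA receptors, fell on both, by 2.03 and 1.93 on the log2 scale (adjusted p = 2.13e-05 and 2.08e-05). KCTD12, an auxiliary subunit of GABAB receptors, rose on VNP2 by 0.60 (SE 0.0569, adjusted p = 4.56e-05) against Matrigel and 0.64 (SE 0.0502, adjusted p = 8.34e-05) against VN. SHANK2, a postsynaptic scaffold, rose on VN (0.76, adjusted p = 0.00428) and was lower on VNP2 than on VN (-0.65, adjusted p = 0.0106).

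Among 25 genes for the synthesis, packaging and uptake of these transmitters, 23 were tested, with 4 higher and 1 lower on VN, 6 higher and 1 lower on VNP2 against Matrigel, and 2 higher and 1 lower on VNP2 against VN. These are 21.7% and 30.4% of those tested against Matrigel, beside the same 15.2% and 16.6% of all genes, and 3 of 23 genes against VN, beside 5.19%. The largest called changes of the list on VNP2 against Matrigel were those of CHAT, GAD2, SLC18A3 and SLC32A1. SLC18A3, the vesicular acetylcholine transporter, had a log2 fold change of 0.94 (SE 0.0786, adjusted p = 1.90e-05) and CHAT, which makes acetylcholine, of 0.98 (SE 0.247, adjusted p = 0.0216). GAD2, which makes GABA, rose by 0.96 (SE 0.155, adjusted p = 0.00186) and SLC32A1, which loads it into vesicles, by 0.60 (SE 0.143, adjusted p = 0.0163). The vesicular glutamate transporters SLC17A6, SLC17A7 and SLC17A8 had 90 to 102 estimated counts each over the 8 libraries and were not called.

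Neuron markers were mostly higher on VN and VNP2 than on Matrigel. Of 15 neuron markers, 8 rose and 1 fell on VN, 11 rose on VNP2 against Matrigel, and 5 rose and 1 fell on VNP2 against VN, with median log2 fold changes of 0.24, 0.42 and 0.20. The shares called were 60.0%, 73.3% and 40.0%, beside 15.2%, 16.6% and 5.19% of all genes tested. For this and the following marker lists, 5.82%, 7.45% and 3.08% of all genes were called higher in the 3 comparisons, and 9.38%, 9.14% and 2.12% lower. Their summed level ranged from 1177 to 1209 TPM in the Matrigel libraries, 1334 to 1374 in the VN libraries and 1423 to 1444 in the VNP2 libraries, and none was at 0, RBFOX3 being lowest at 0.327 TPM. DCX, a marker of young neurons, rose by 0.53 (SE 0.0447, adjusted p = 3.24e-05) and 0.72 (SE 0.0449, adjusted p = 2.40e-06) against Matrigel. Of 7 motor neuron markers, 5 were tested and 2, 4 and 2 rose, their sum going from 21.1 to 22.7 TPM on Matrigel to 28.9 to 30.4 on VN and 39.2 to 40.6 on VNP2. MNX1 and LHX3 had 13 and 5 counts in all. The 13 OPC markers, of which 10 were tested, had 5, 8 and 2 that rose and 0, 0 and 1 that fell, and their sum ranged from 257 to 263 TPM on Matrigel, 349 to 364 on VN and 371 to 394 on VNP2. Of 8 neural crest markers 5 were tested and 0, 2 and 1 rose while 0, 1 and 1 fell, with a sum of 27.6 to 29.9, 28.5 to 30.6 and 36.9 to 38.6 TPM. The part of these cell types in the receptor changes was not tested.

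Markers of other cell types moved in both directions. Of 7 astrocyte markers 5 were tested: GJA1 fell on both vitronectin substrates, and GFAP and AQP4 had 42 and 27 counts in all libraries. The summed astrocyte list was 205 to 215 TPM on Matrigel, 129 to 138 on VN and 148 to 158 on VNP2. Of 8 progenitor markers 7 were tested and 2 fell in each comparison with Matrigel (NES and VIM), with 3 and 2 that rose. Their sum was 3643 to 3712, 3144 to 3204 and 3422 to 3468 TPM, with PAX6 at 36 counts in all libraries. Of 7 pluripotency markers 1 and 3 fell and 0 and 1 rose against Matrigel, with sums of 93.2 to 98.1, 83.8 to 86.0 and at most 80.7 TPM. Of 8 mesenchymal markers 3 and 5 rose and 2 and 2 fell, with sums of 508 to 519, 578 to 615 and 498 to 533 TPM. For CHRNB1, a subunit of the muscle receptor, the skeletal muscle list bears: MYOD1, MYOG, DES and TNNT2 had 3, 0, 28 and 41 counts in the 8 libraries, ACTC1 fell by 1.96 on VN and 2.17 on VNP2 on the log2 scale (adjusted p = 0.000182 and 6.58e-05), and the summed list was 6.48 to 9.31, 2.87 to 4.23 and 2.03 to 2.70 TPM. Of the 6 genes of this list 2 were tested. The log2 fold change of the gene tested besides ACTC1 was positive on VN and negative on VNP2 against Matrigel, and that gene was not called. The part of muscle cells in the CHRNB1 values was not tested either.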

How the data were processed

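RNA-seq libraries (stranded, paired-end, polyadenylated RNA) of 8 samples were analysed: 2 on Matrigel, 3 on VN and 3 on VNP2, grouped by their labels. The authors trimmed reads with Trim Galore and quantified them with Salmon against GENCODE v32 of GRCh38. The deposited files give an estimated count and a TPM value for each transcript. A deposited table of counts that the authors had normalized with DESeq2 1.27.12 (a signal unit, with 23350 genes) served only as a check, in which 37 of the 37 tested receptor genes had mean levels within 5% of those computed here, and as the input of an alternative. The authors' Salmon version was not given in the sources used here.

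Transcripts were assigned to genes with GENCODE v29, which matched 98.8 to 98.9% of the counts of each library. Estimated counts were summed per gene and rounded to whole numbers, and deposited TPM values were summed per gene. The depth of 37997896 to 39429453 counts per library leaves genes under about 100 counts with a wide error. edgeR 4.0.16 in R 4.3.3 (quasi-likelihood F-test, two-sided, TMM, offsets for mean transcript length, filterByExpr with a minimum count of 10 and a minimum total of 15) was fitted to all 8 libraries with substrate as the only factor, and p-values were adjusted by Benjamini-Hochberg over 18203 genes. Normalized counts are counts divided by these offsets. The fit was tested on simulated data of 18186 genes: for VNP2 against Matrigel 200 of 200 altered genes and 10 unaltered genes were called, and for VN against Matrigel, where none was altered, 0 were. The altered genes averaged at least 100 counts and all changed by the same factor, which was larger than most of the called receptor changes. The dispersion was equal for all genes, and no library was set apart. The simulation therefore does not show how smaller changes or genes with fewer counts fare.

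All 44 receptor genes were named. Those called at least once were given in every library, and from each other list at most 4 called genes per comparison, those with the greatest change, besides defining cell type markers. DCX was chosen after its values were seen. The members and lists were chosen with earlier results of these data known. Alternatives were RLE factors, no length offsets, no filter or at least 50 counts in every library, a fit of the libraries compared alone, the replicate number as a block, DESeq2 1.42.0, limma 3.58.1 on log2 of the authors' table (pseudocount 1), and fits that each omitted 1 library. Same-numbered replicates did not deviate together (7 correlations from -0.046 to 0.016), so the numbers were not taken to pair the samples. Matrigel replicate 1 was not analysed here. Some results are not reported here.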

Additional observations from a re-analysis of the deposited data

How the results depend on the processing

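No called receptor gene changed direction in any alternative, and 13 of the 29 calls were kept in all of them. On VN against Matrigel the count of 10 became 5 when only the libraries of the pair were fitted, and 3 to 13 when a library was left out (3 without Matrigel replicate 2, 4 without Matrigel replicate 3, 5 without VN replicate 3). On VNP2 against Matrigel the count of 14 became 23 without length offsets, which added 9 genes and lost none, and 9 to 16 when a library was left out (9 without Matrigel replicate 2). On VNP2 against VN the count of 5 became 3 to 6 (3 without VNP2 replicate 1 or VNP2 replicate 3). Over all genes, leaving out a library gave 1180 to 3912, 1612 to 3650 and 545 to 1985 calls, the largest counts being those without VN replicate 1. The cause of these shifts was not tested. DESeq2 called 9, 15 and 7 receptor genes, and limma, fitted to the authors' normalized counts, called 11, 15 and 6. Because the replicate numbers do not pair the libraries, a fit with the replicate block is given only as an alternative: it called 12, 16 and 7 receptor genes, of which 9, 13 and 5 were also called without it, and 3396, 3153 and 1169 of all genes. With the block, CHRNB1 on VN (-0.29, adjusted p = 0.0549) and GRIK5 on VNP2 (0.34, adjusted p = 0.0639), both against Matrigel, were no longer called. Summed receptor levels were 205.9 TPM from the deposited values and 208.5 when recomputed from counts and effective lengths. Depth limits the precision of genes under 100 counts, such as GRIN3A and GRIK1, and the number of Matrigel libraries, 2, limits the comparisons with Matrigel.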
